A study of Cucumis sativus with 12 samples.

Results

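The 2 single mutants Csspt-/- and Csalc-/- of cucumber (Cucumis sativus) were compared directly in stigma and style, to find which expression differences were private to one paralogue. The comparison rests on 6 of the 12 libraries of the study, 3 of Csspt-/- and 3 of Csalc-/-, taken by their genotype labels. The other 6 libraries, 3 of the double mutant CssptCsalc-/- and 3 of the wild type (WT), were used to place each mutant. All 12 came from the same tissue at flower opening, and the series design counts 3 biological replicates per genotype. The kind of mutation, the number of independent lines per genotype and the number of flowers pooled per library are not given in the labels. Where replicates shared plants, the p-values below measure only the spread between these libraries.

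SPATULA and ALCATRAZ are closely related basic helix-loop-helix transcription factors. In Arabidopsis, SPATULA is required for the style and the transmitting tract, the tissue through which pollen tubes grow to the ovules, and ALCATRAZ is best known for the separation layer of the fruit valve margin. The paralogues overlap in function there, so a double mutant can be more strongly affected than either single mutant. The title of the series names fruit cavity, female sterility and the transmitting tract as the subject in cucumber.

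Library totals lay between 32155631 and 37986853 counts. Csalc replicate 3 (Csalc 3 below) stood apart from the other 11 libraries: its log-CPM correlation with them was 0.828 to 0.871. With Csalc 1 and 2 it was 0.835 and 0.834. Pairs of the other libraries were at 0.983 to 0.994 within a genotype and 0.946 to 0.987 between genotypes. The scaling factor of Csalc 3 was 1.24, against 0.938 to 1.04 in the others. The morning clock gene LHY was at 5.97 CPM (counts scaled to library size) in Csalc 3, against 1616 and 1478 CPM in Csalc 1 and 2. A nerolidol synthase (Csa1G066550) had 1.13 CPM in Csalc 3, against 3802 and 3299 CPM in Csalc 1 and 2. Counts of genes and differences between Csspt and Csalc are therefore given with all 12 libraries and without Csalc 3. The carpel identity gene AGAMOUS (Csa6G520410) was at 215 to 237 CPM in Csspt, 183 to 220 CPM in Csalc and 185 to 212 CPM in WT. A stigma marker (STIG1-like, Csa1G059710) was near the detection limit in the mutants, at 0.383 to 1.94 CPM in Csspt and 0.355 to 1.79 CPM in Csalc, with 4.19 to 5.11 CPM in WT. In whole stigma and style, fewer cells of a type and less RNA per cell cannot be told apart.

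The deposited annotation names 2 genes SPATULA and none ALCATRAZ, and does not say which gene was mutated in which line. The expressed SPATULA gene (Csa2G356640) had 47.9, 45.2 and 42.3 CPM in Csspt, 27.7, 28.3 and 10.5 CPM in Csalc, 28.1, 26.6 and 18.9 CPM in the double mutant, and 49.3, 47.4 and 46.9 CPM in WT. Its Csspt libraries overlapped WT, and its Csalc libraries lay below every Csspt and WT library. Without Csalc 3, it was lower in Csalc than in WT by edgeR's quasi-likelihood test (log2 fold change -0.78 ± 0.15 SE, adjusted p = 0.0176), while with 12 libraries the value was -1.11 and did not pass (adjusted p = 0.135). Between Csspt and Csalc the log2 fold change was 1.03 ± 0.31 with 12 libraries (adjusted p = 0.320) and 0.69 ± 0.15 without Csalc 3 (adjusted p = 0.0660), so neither passed 0.05. The other SPATULA gene (Csa6G491000) stayed under 1 CPM in each library. Since the kind of mutation is not given, these transcript levels do not check the genotypes.

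Some of the genes that differed between Csspt and Csalc were genes for surface lipids, which form the cuticle of the epidermis. A GDSL esterase/lipase was high in Csspt and almost lost in Csalc. The cutin precursor exporter ABCG32, the wax enzyme CER3 and the fatty acid elongase 3-ketoacyl-CoA synthase 10 were 3 of the 4 genes lower in Csspt than in Csalc with all 12 libraries. Transporters of amino acids and a U-box ubiquitin ligase were among those higher in Csspt. In all, 12 of 18850 genes tested differed at an adjusted p under 0.05 by edgeR's quasi-likelihood test (0.0637%), with 8 higher (0.0424%) and 4 lower (0.0212%) in Csspt. The 3 Csspt and 3 Csalc libraries did not overlap in 2463 of these genes (13.1%), whatever their p. At an unadjusted p under 0.05 there were 2490.

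Without Csalc 3 the same test called 95 of 19060 genes (0.498%), with 48 higher (0.252%) and 47 lower (0.247%) in Csspt and 2588 genes at an unadjusted p under 0.05. These 95 held all 12 genes called with 12 libraries. Among the 95 the median absolute log2 fold change was 1.35, and 62 differed by more than 2-fold. The 95% interval of the difference lay within 2-fold in either direction for 12820 genes (67.3%), against 9473 genes (50.3%) with 12 libraries. For the genes outside these counts, a difference of more than 2-fold was neither shown nor bounded. DESeq2 called 406 genes with 12 libraries and 761 without Csalc 3, and limma voom with library weights called 160 and 165. EdgeR fits to the libraries of the 2 mutants alone called 0 genes with Csalc 3 and 5 without Csalc 3, with 840 and 2191 genes at an unadjusted p under 0.05.

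Each gene called between the mutants was next placed against WT. A gene was named Csspt-private where Csspt differed from WT, Csalc was not called against WT and the 95% interval of Csalc over WT lay within 2-fold in either direction. Csalc-private was the mirror image. A private label thus bounds the other mutant within 2-fold and does not mean that it was unchanged. Genes called in both mutants against WT were graded where the changes had the same direction and opposed where they did not, and the rest were left as other. Without Csalc 3, the tests against WT called 900 genes in Csspt (4.72%) and 831 in Csalc (4.36%), and they share the WT libraries. The 95 genes then held 22 Csspt-private, 32 Csalc-private, 13 graded, 2 opposed and 26 other genes.

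**Figure D1:**
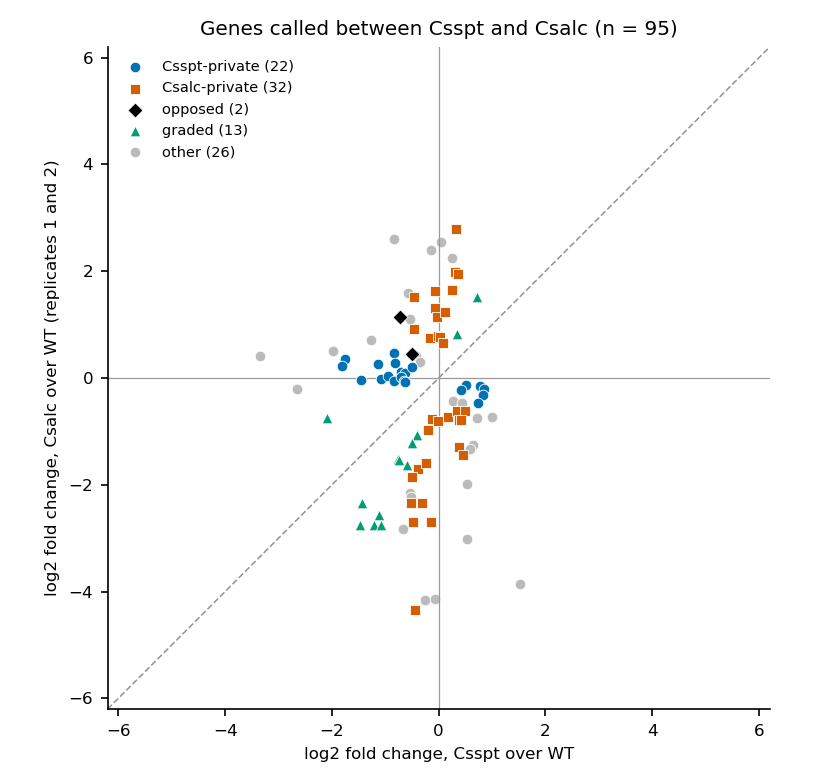
Log2 fold change over WT of the 95 genes called between the mutants, for Csspt on the x axis and Csalc (replicates 1 and 2) on the y axis, from the fit without Csalc 3; each point is a gene and its symbol gives the pattern, and the dashed line marks equal values. The 22 Csspt-private genes lie along the horizontal zero line and the 32 Csalc-private genes along the vertical one, which the definition fixes. Both axes share the WT libraries.

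Of the 22 Csspt-private genes, 16 were lower and 6 higher in Csspt than in Csalc, with a median absolute log2 fold change of 0.95. Of the 32 Csalc-private genes, 18 were higher in Csspt, which means that they lay below WT in Csalc, and 14 were lower, with a median of 1.36. With 12 libraries, 11 genes were called in Csspt against WT (0.0584%) and 148 in Csalc against WT (0.785%). The patterns then held 0 Csspt-private and 5 Csalc-private genes by edgeR, with 1415 genes at an unadjusted p under 0.05 in Csspt against WT. The largest absolute log2 fold change between the mutants among those 5 was 2.60. The GDSL esterase/lipase Csa6G518310, at 4.15, was not among them and was left as other with 12 libraries. By DESeq2 there were 38 Csspt-private and 75 Csalc-private genes with 12 libraries, and by limma voom 51 and 41. The Csspt-private set therefore rests, by edgeR, on leaving Csalc 3 out.

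The GDSL esterase/lipase (Csa6G518310), of a family of lipid-cleaving enzymes, had 55.8, 53.5 and 55.9 CPM in Csspt, 5.23, 2.07 and 2.04 CPM in Csalc, 1.57, 2.06 and 2.80 CPM in the double mutant and 66.5, 76.0 and 79.8 CPM in WT. Csspt and WT were high and both genotypes carrying the Csalc mutation were low, with no overlap. In this gene each Csspt library also lay below each WT library. Its log2 fold change between the mutants was 4.15 ± 0.37 with 12 libraries (edgeR adjusted p = 0.00382) and 3.92 ± 0.34 without Csalc 3 (adjusted p = 0.00293). Leaving out Csalc 1 as well as Csalc 3 moved it to 4.73. Against WT it was -0.43 ± 0.25 in Csspt (adjusted p = 0.330) and -4.35 ± 0.35 in Csalc (adjusted p = 0.000503) without Csalc 3.

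ABCG32 (Csa2G005890), which in Arabidopsis exports cutin precursors to the surface, went the other way. It had 12.8, 18 and 22.6 CPM in Csspt, 115, 80.5 and 128 CPM in Csalc, 70.0, 114 and 76.5 CPM in the double mutant and 14.0, 15.0 and 13.5 CPM in WT. Csspt was at the WT level while Csalc and the double mutant were high. The log2 fold change between the mutants was -2.60 ± 0.26 with 12 libraries (adjusted p = 0.00725) and -2.46 ± 0.26 without Csalc 3 (adjusted p = 0.00506). Against WT, Csalc was higher by 2.78 ± 0.26 on the log2 scale (adjusted p = 0.000948) without Csalc 3, with 0.32 ± 0.23 in Csspt (adjusted p = 0.454).

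CER3 (Csa1G294020) acts in the formation of wax alkanes in Arabidopsis. It had 30.4, 55.1 and 40.2 CPM in Csspt, 111, 141 and 170 CPM in Csalc, 37.5, 51.4 and 41.2 CPM in the double mutant and 34, 33.8 and 30.1 CPM in WT. Here the 3 Csalc libraries stood above all others, the double mutant included. The log2 fold change between the mutants was -1.75 ± 0.23 with 12 libraries (adjusted p = 0.0412) and -1.59 ± 0.22 without Csalc 3 (adjusted p = 0.0177). 3-ketoacyl-CoA synthase 10 (Csa4G649640), which elongates very long chain fatty acids, had 12.4, 8.84 and 8.04 CPM in Csspt, 23.8, 27.4 and 38.1 CPM in Csalc, 32.4, 23.9 and 25.9 CPM in the double mutant and 10.3, 9.94 and 10.6 CPM in WT. In this gene the double mutant was at the Csalc level. The fitted log2 fold change between the mutants was -1.61 ± 0.22 with 12 libraries (adjusted p = 0.0435) and -1.39 ± 0.18 without Csalc 3 (adjusted p = 0.0160).

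Another 3 surface lipid genes were called only without Csalc 3. Fatty acyl-CoA reductase 3 (Csa6G151810), which makes primary alcohols of wax in Arabidopsis, had 57.2, 14.5 and 12.2 CPM in Csspt, 0.925, 0.414 and 0 CPM in Csalc, 3.85, 2.57 and 6.56 CPM in the double mutant and 8.77, 10.5 and 9.75 CPM in WT. All 3 Csalc libraries were the lowest, and Csspt 1 was far above Csspt 2 and 3. Between Csspt and Csalc the log2 fold change was 5.38 ± 0.83 (adjusted p = 0.0239), and it moved to 4.31 without Csspt 1 and to 6.06 without Csalc 1. With 12 libraries it was 6.0 ± 1.04 (adjusted p = 0.0979). A GDSL esterase/lipase of the type At5g37690 (Csa3G303130) had 8.66, 7.16 and 8.01 CPM in Csspt and 33.2, 55.6 and 3.22 CPM in Csalc, so Csalc 3 lay below Csspt and replicates 1 and 2 above it. Its difference was -2.48 ± 0.24 on the log2 scale without Csalc 3 (adjusted p = 0.00393) and -1.95 ± 0.70 with 12 libraries (adjusted p = 0.333). An omega-hydroxypalmitate O-feruloyl transferase (Csa4G640980), of suberin and cutin synthesis, had 42.7, 45.9 and 37.7 CPM in Csspt and 75.9, 86 and 27.4 CPM in Csalc, with Csalc 3 again on the other side. Its difference was -0.945 ± 0.11 without Csalc 3 (adjusted p = 0.0076) and -0.58 ± 0.32 with 12 libraries (adjusted p = 0.445).

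Over the list of cuticle and surface lipid genes, 1 of 113 tested members was higher and 3 were lower in Csspt with 12 libraries. That test called 0.0424% of all genes higher and 0.0212% lower. Without Csalc 3, 2 of 116 were higher and 5 lower, in a test that called 0.498% of all genes. DESeq2 called 2 members higher and 11 lower with 12 libraries, and 4 and 9 without Csalc 3. Limma voom called 1 and 7 with 12 libraries, and 1 and 6 without Csalc 3. Over all genes DESeq2 called 406 and 761, and limma voom 160 and 165. The list's median log2 fold change was -0.32 with 12 libraries and -0.10 without Csalc 3, beside -0.03 and 0.0007 over all genes tested. The shift with 12 libraries was not particular to surface lipids. Medians of the 38 lists then ran from -0.40 (wall proteins and arabinogalactans) to 0.48 (terpene synthases), with -0.36 for cell cycle and histones. The summed level of the surface lipid list was 12791 CPM in Csalc 3, against 4176 and 5748 CPM in Csalc 1 and 2. The list was chosen with earlier results of these data known.

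**Figure D2:**
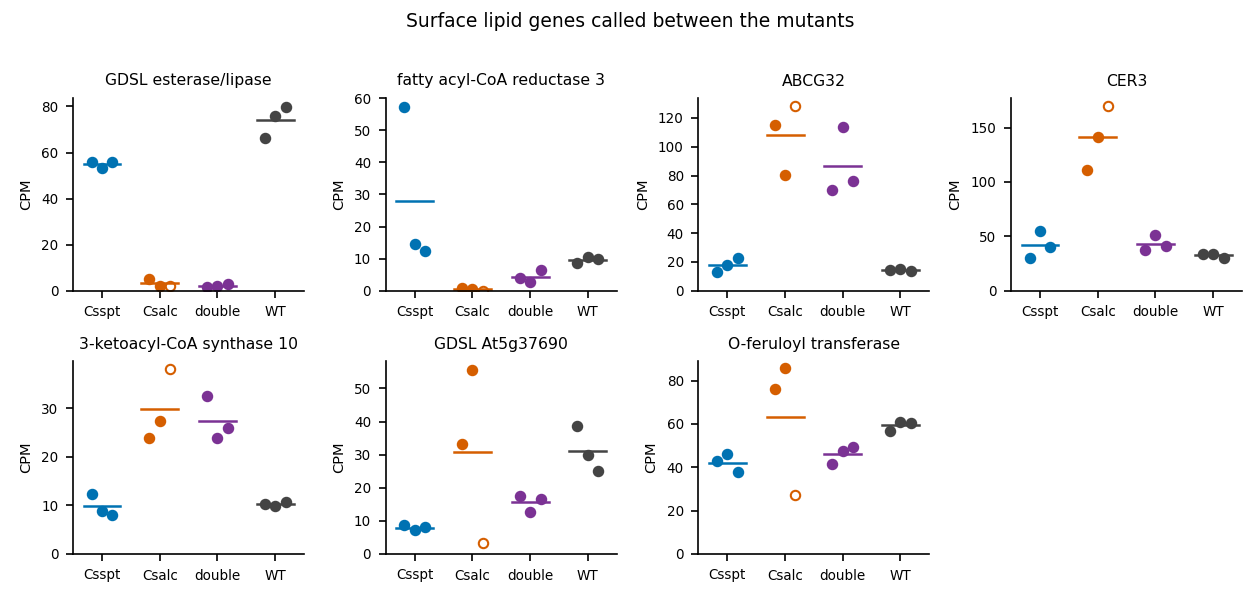
CPM (y axis, linear) of the 7 surface lipid genes called between the mutants, by library, in Csspt, Csalc, the double mutant and WT; points are libraries, bars are means of 3 and the open circle is Csalc 3. The GDSL esterase/lipase is at 53.5 to 55.9 CPM in Csspt and 2.04 to 5.23 CPM in Csalc, while ABCG32 is at 12.8 to 22.6 CPM in Csspt and 80.5 to 128 CPM in Csalc. In the last 2 panels the open circle lies apart from the other Csalc points.

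Outside the surface lipids, 2 further genes that were Csalc-private without Csalc 3 were strongly lower in Csalc than in Csspt with all 12 libraries. U-box protein 51 (Csa6G363600), of a family of ubiquitin ligases, had 36.1, 24 and 21.7 CPM in Csspt, 5.71, 5.98 and 5.01 CPM in Csalc, 7.68, 7.84 and 8.65 CPM in the double mutant and 36.0, 41.0 and 36.0 CPM in WT. The log2 fold change of this gene between the mutants was 2.29 ± 0.19 with 12 libraries (edgeR adjusted p = 0.00382) and 2.22 ± 0.21 without Csalc 3 (adjusted p = 0.00369). The gene for lysine histidine transporter 1 (Csa5G590140), an amino acid importer, was among the most abundant of the set. It had 1105, 918 and 1036 CPM in Csspt, 331, 245 and 316 CPM in Csalc, 356, 239 and 281 CPM in the double mutant and 1262, 1690 and 1392 CPM in WT. Its log2 fold change between the mutants was 1.78 ± 0.21 with 12 libraries (adjusted p = 0.0178) and 1.82 ± 0.21 without Csalc 3 (adjusted p = 0.00758). In the transporter gene the double mutant was at the level of Csalc. For U-box protein 51 the double mutant lay above each Csalc library and below each Csspt and WT library. In the transporter gene each Csspt library also lay below each WT library.

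Beta-glucosidase 47 (Csa1G064150), a sugar-cleaving hydrolase, had 23.1, 21.7 and 20.2 CPM in Csspt, 9.98, 10.1 and 8.06 CPM in Csalc, 23.8, 17.1 and 18.4 CPM in the double mutant and 14.0, 16.1 and 15.7 CPM in WT. Csspt lay above WT and Csalc below it. Only the Csalc side passed against WT without Csalc 3, with a log2 fold change of -0.61 ± 0.15 (adjusted p = 0.0458), beside 0.50 ± 0.13 in Csspt (adjusted p = 0.0565). Between the mutants it was 1.21 ± 0.16 with 12 libraries (adjusted p = 0.0412) and 1.11 ± 0.15 without Csalc 3 (adjusted p = 0.0177).

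A similar split around WT was seen in a pair of genes that fell in no private pattern. Proline transporter 1 (Csa5G197090) had 153, 152 and 146 CPM in Csspt, 68.1, 93.2 and 78.3 CPM in Csalc, 103, 124 and 111 CPM in the double mutant and 106, 115 and 112 CPM in WT. A probable mannitol dehydrogenase (Csa2G299950), of the alcohol dehydrogenase family, had 14.6, 16.3 and 12 CPM in Csspt, 4.75, 5.59 and 3.32 CPM in Csalc, 16.1, 10.8 and 15.5 CPM in the double mutant and 8.11, 8.04 and 9.75 CPM in WT. Between the mutants the log2 fold change was 0.91 ± 0.13 for the transporter (adjusted p = 0.0470) and 1.65 ± 0.24 for the dehydrogenase (adjusted p = 0.0470), both with 12 libraries. Without Csalc 3 these were 0.90 ± 0.13 (adjusted p = 0.0206) and 1.46 ± 0.21 (adjusted p = 0.0233).

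The remaining Csalc-private genes named here were called only without Csalc 3. For genes named by the rule, Csalc 3 had to lie on the side of Csalc 1 and 2. It did so in 19 of the 32 Csalc-private genes. The gene for heparanase-like protein 2 (Csa3G165650), of a family of sugar-chain hydrolases, had 20.2, 16.8 and 18.1 CPM in Csspt, 1.56, 4.65 and 1.67 CPM in Csalc, 17.7, 17.4 and 24.5 CPM in the double mutant and 20.6, 25.6 and 14.1 CPM in WT. It was low in Csalc alone: the double mutant, which carries the Csalc mutation too, overlapped WT. The fitted log2 fold change between the mutants was 2.56 ± 0.40 (adjusted p = 0.0260) and moved to 3.55 without Csalc 2. With 12 libraries it was 2.81 ± 0.41 (adjusted p = 0.0512).

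DETOXIFICATION 16 (Csa1G003490), a MATE-type efflux carrier, had 103, 74.4 and 85.9 CPM in Csspt, 33.0, 35.7 and 23.9 CPM in Csalc and 122, 126 and 123 CPM in WT, with a log2 fold change between the mutants of 1.35 ± 0.21 (adjusted p = 0.0239), beside 1.51 ± 0.22 with 12 libraries (adjusted p = 0.0512). For this carrier each Csspt library also lay below each WT library. A second gene of the same name (Csa1G003460) had 4.53, 3.15 and 3.24 CPM in Csspt and 1.05, 1.30 and 0.934 CPM in Csalc. Its log2 fold change was 1.62 ± 0.27 without Csalc 3 (adjusted p = 0.0334) and 1.73 ± 0.26 with 12 libraries (adjusted p = 0.0577). Whether the 2 genes share reads was not tested, so they were not read as independent. YLS3 (Csa4G280560), a lipid transfer-like protein, had 640, 475 and 449 CPM in Csspt, 249, 166 and 414 CPM in Csalc and 553, 696 and 782 CPM in WT. Between Csspt and Csalc, the log2 fold change was 1.33 ± 0.23 (adjusted p = 0.0371), against 0.92 ± 0.30 with 12 libraries (adjusted p = 0.323), and Csalc 3 came close to the Csspt range.

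The transcription factor gene MYB86 (Csa2G035350) was low throughout, with 2.77, 3.56 and 2.86 CPM in Csspt, 0.765, 0.740 and 1.82 CPM in Csalc and 2.98, 4.48 and 3.99 CPM in WT (log2 fold change 2.02 ± 0.30, adjusted p = 0.0239). Tyrosine-sulfated glycopeptide receptor 1 (Csa7G430750), a receptor kinase for a growth peptide in Arabidopsis, had 52.7, 49.9 and 46.4 CPM in Csspt, 32.6, 25.3 and 16.1 CPM in Csalc and 59.6, 52.6 and 58.2 CPM in WT (0.78 ± 0.13, adjusted p = 0.0295). L-aspartate oxidase (Csa5G524850), the entry enzyme of NAD synthesis in plastids, had 55.2, 54.6 and 54.9 CPM in Csspt, 34.9, 28.0 and 31.5 CPM in Csalc and 50.5, 62.1 and 52.7 CPM in WT (0.80 ± 0.14, adjusted p = 0.0405). That the Csspt and Csalc libraries did not overlap was a condition for naming these 3 genes. With 12 libraries the log2 fold change was 1.46 ± 0.37 for MYB86 (adjusted p = 0.257), 1.01 ± 0.21 for the receptor (adjusted p = 0.161) and 0.80 ± 0.13 for the oxidase (adjusted p = 0.0831).

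Above WT in Csalc, and so lower in Csspt, were a peptide methionine sulfoxide reductase and a transporter. The reductase (Csa1G002810), which repairs oxidized methionine, had 2.06, 1.97 and 1.79 CPM in Csspt, 4.91, 7.43 and 3.51 CPM in Csalc and 1.80, 1.52 and 1.34 CPM in WT (log2 fold change between the mutants -1.67 ± 0.26, adjusted p = 0.0259). The transporter (Csa1G008530), of the NRT1/PTR family of nitrate and peptide carriers, had 68.5, 66.8 and 67.3 CPM in Csspt, 130, 124 and 95.7 CPM in Csalc and 85.1, 67.1 and 72.4 CPM in WT (-0.91 ± 0.13, adjusted p = 0.0195). A probable inactive receptor kinase (Csa6G133750) and pectinesterase 51 (Csa2G302140) had the same order but missed the bound for Csspt. The kinase had 1.91, 6.04 and 6.25 CPM in Csspt, 25.5, 30.1 and 31.7 CPM in Csalc and 3.91, 7.72 and 4.06 CPM in WT (-2.55 ± 0.44, adjusted p = 0.0357). The pectinesterase, which removes methyl groups from wall pectin, had 1.39, 1.21 and 1.16 CPM in Csspt, 4.88, 6.36 and 9.98 CPM in Csalc and 1.59, 1.94 and 2.03 CPM in WT (-2.17 ± 0.33, adjusted p = 0.0239). With 12 libraries the difference was -1.44 ± 0.30 for the reductase (adjusted p = 0.170), -0.79 ± 0.16 for the transporter (adjusted p = 0.134), -2.62 ± 0.43 for the kinase (adjusted p = 0.0783) and -2.50 ± 0.37 for the pectinesterase (adjusted p = 0.0512).

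**Figure D3:**
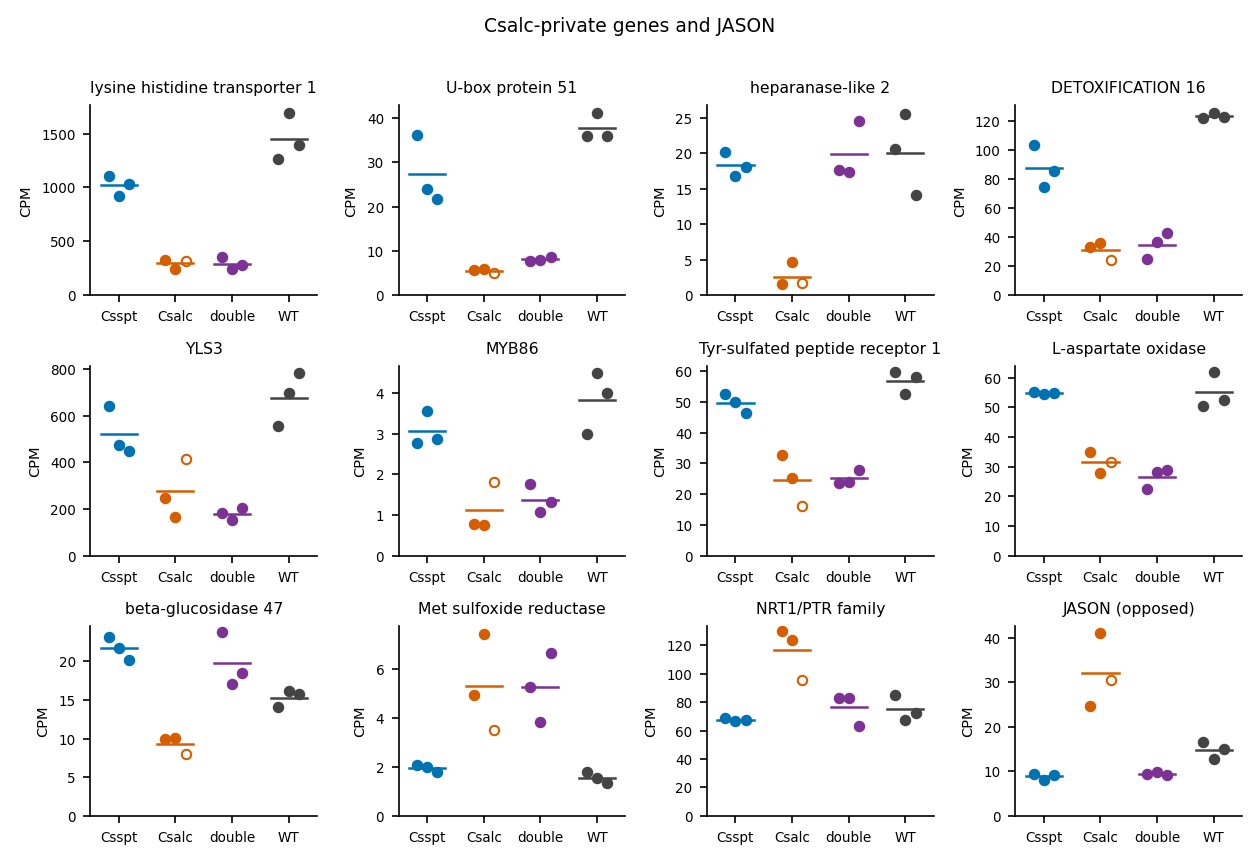
CPM (y axis, linear) by library of 11 Csalc-private genes and of JASON, in Csspt, Csalc, the double mutant and WT; points are libraries, bars are means of 3 and the open circle is Csalc 3. In lysine histidine transporter 1, U-box protein 51 and DETOXIFICATION 16 the Csalc and double mutant points lie below all Csspt and WT points. In the panel of heparanase-like protein 2 the Csalc points alone are low.

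The protein JASON (Csa4G063990), which organizes the spindle in male meiosis of Arabidopsis, was opposed: below WT in Csspt and above it in Csalc. It had 9.43, 8.16 and 9.27 CPM in Csspt, 24.8, 41.0 and 30.6 CPM in Csalc, 9.30, 9.82 and 9.07 CPM in the double mutant and 16.6, 12.7 and 14.9 CPM in WT. The double mutant was at the Csspt level. Between the mutants its log2 fold change was -1.84 ± 0.19 with 12 libraries (adjusted p = 0.00725) and -1.88 ± 0.19 without Csalc 3 (adjusted p = 0.00495). Against WT it was -0.73 ± 0.17 in Csspt (adjusted p = 0.0435) and 1.15 ± 0.19 in Csalc (adjusted p = 0.0102) without Csalc 3. With 12 libraries the Csspt value missed the threshold, at -0.72 with an adjusted p of 0.262.

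Aldehyde dehydrogenase 3F1 (Csa4G291370), which oxidizes reactive aldehydes, was graded, below WT in both mutants and lower in Csalc. It had 17.3, 15.8 and 13.1 CPM in Csspt, 4.21, 5.45 and 3.88 CPM in Csalc, 11.4, 7.01 and 7.82 CPM in the double mutant and 25.2, 38.7 and 34 CPM in WT. The log2 fold change between the mutants was 1.77 ± 0.24 with 12 libraries (adjusted p = 0.0435) and 1.67 ± 0.26 without Csalc 3 (adjusted p = 0.0239). Of the 13 graded genes, 10 were higher in Csspt than in Csalc.

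None of the 22 Csspt-private genes was called between the mutants by edgeR with 12 libraries. The lowest relative to Csalc among those named was GNL2 (Csa2G004740), a guanine-nucleotide exchange factor of vesicle traffic that acts in pollen germination in Arabidopsis. It had 1.91, 3.51 and 3.36 CPM in Csspt, 11.8, 13.3 and 37.9 CPM in Csalc, 1.93, 1.71 and 1.54 CPM in the double mutant and 10.2, 9.63 and 9.56 CPM in WT. Csspt and the double mutant lay below all Csalc and WT libraries. The log2 fold change between the mutants was -2.10 ± 0.22 without Csalc 3 (adjusted p = 0.00574) and -2.84 ± 0.43 with 12 libraries (adjusted p = 0.0577). Against WT it was -1.75 ± 0.21 in Csspt (adjusted p = 0.00398) and 0.35 ± 0.22 in Csalc (adjusted p = 0.426). The summed level of the pollen markers (13 of 20 listed genes tested) was 136 to 152 CPM in Csspt, 145, 135 and 196 CPM in Csalc and 183 to 199 CPM in WT, and the part of pollen RNA in the GNL2 and JASON values was not tested.

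Genes of the microtubule-nucleating gamma-tubulin complex followed. Gamma-tubulin complex component 4 (Csa1G616270) had 3.97, 4.15 and 3.93 CPM in Csspt, 11.4, 9.59 and 4.47 CPM in Csalc, 2.74, 4.71 and 4.68 CPM in the double mutant and 9.15, 8.83 and 8.25 CPM in WT. Its homolog with the neighbouring identifier (Csa1G616260) had 12.1, 13.6 and 9.61 CPM in Csspt, 24.2, 22.2 and 15.5 CPM in Csalc, 9.10, 8.65 and 9.70 CPM in the double mutant and 25.1, 20.2 and 22.5 CPM in WT. Between the mutants the log2 fold change was -1.38 ± 0.21 for the first gene (adjusted p = 0.0239) and -0.98 ± 0.15 for its homolog (adjusted p = 0.0239), against -1.07 ± 0.32 (adjusted p = 0.320) and -0.81 ± 0.19 (adjusted p = 0.207) with 12 libraries. Another Csspt-private gene, Csa1G616280, has the next identifier and no protein name. Whether the 3 are parts of a single locus is not known, so they were not read as independent.

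DNA polymerase I A (Cucumis_sativus_newGene_1592), of organelle DNA replication, had 38.3, 39.4 and 39.1 CPM in Csspt, 90.0, 103 and 56.4 CPM in Csalc and 62.5, 89.2 and 56.3 CPM in WT (log2 fold change between the mutants -1.31 ± 0.17, adjusted p = 0.0142). Tricalbin-3 (Csa5G585990), named after a yeast family that tethers membranes, had 20.9, 21.6 and 20.4 CPM in Csspt, 32.8, 40.9 and 24 CPM in Csalc and 38.0, 33.9 and 30.2 CPM in WT (-0.82 ± 0.12, adjusted p = 0.0239). In both, Csalc 3 was the Csalc library closest to Csspt. Ubiquitin-conjugating enzyme E2 24 (Csa6G517350), which limits phosphate uptake in Arabidopsis, had 24.3, 24.7 and 30.4 CPM in Csspt, 45.4, 41.1 and 49.4 CPM in Csalc and 41.1, 45.4 and 41.7 CPM in WT (-0.71 ± 0.12, adjusted p = 0.0295). Acyl carrier protein 1 (Csa6G067970), which holds the growing chain in plastid fatty acid synthesis, had 172, 164 and 163 CPM in Csspt, 259, 231 and 236 CPM in Csalc and 276, 241 and 253 CPM in WT (-0.56 ± 0.09, adjusted p = 0.0239). For these last 2 genes the 3 Csalc libraries lay together, at the WT level. With 12 libraries the difference was -1.09 ± 0.23 for the polymerase (adjusted p = 0.157), -0.64 ± 0.18 for tricalbin-3 (adjusted p = 0.301), -0.78 ± 0.12 for the conjugating enzyme (adjusted p = 0.0671) and -0.54 ± 0.11 for the carrier protein (adjusted p = 0.134).

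Higher in Csspt and at the WT level in Csalc was a cytokinin riboside 5'-monophosphate phosphoribohydrolase (Cucumis_sativus_newGene_863), an enzyme that releases active cytokinin. It had 4.71, 6.42 and 6.63 CPM in Csspt, 2.97, 2.40 and 3.37 CPM in Csalc, 5.73, 5.68 and 5.99 CPM in the double mutant and 3.07, 3.40 and 3.54 CPM in WT. Csspt and the double mutant lay above all Csalc and WT libraries, and the log2 fold change between the mutants was 1.14 ± 0.19 (adjusted p = 0.0338), against 1.02 ± 0.20 with 12 libraries (adjusted p = 0.134). Without Csalc 3, edgeR called 1 of 46 tested cytokinin genes, this one, where it called 0.498% of all genes. DESeq2 called 2 cytokinin genes and limma voom 1, where they called 761 and 165 genes in all.

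Of redox enzymes, an NADPH-dependent aldo-keto reductase (Csa4G296840), which removes reactive carbonyls, had 57.6, 42.7 and 44.2 CPM in Csspt, 21.5, 25.2 and 16.6 CPM in Csalc, 60.8, 52.0 and 69.6 CPM in the double mutant and 24.3, 25.9 and 30.0 CPM in WT (1.04 ± 0.17, adjusted p = 0.0295). Nucleoredoxin 1 (Csa5G647500), a thioredoxin-like protein, had 57.9, 58.8 and 52.8 CPM in Csspt, 25.4, 34.2 and 28.9 CPM in Csalc, 75.4, 58.7 and 61.4 CPM in the double mutant and 29.2, 36.5 and 32.9 CPM in WT (0.92 ± 0.16, adjusted p = 0.0334). Both were high in Csspt and in the double mutant. The F-box protein gene CPR1 (Csa3G183340), which restrains immune receptors in Arabidopsis, had 179, 237 and 216 CPM in Csspt, 135, 135 and 69.5 CPM in Csalc, 129, 132 and 123 CPM in the double mutant and 143, 162 and 165 CPM in WT (0.64 ± 0.12, adjusted p = 0.0449). Amino acid permease 6 (Csa3G894480) had 40.3, 46.8 and 48.3 CPM in Csspt, 29.4, 28.8 and 27.6 CPM in Csalc, 33.6, 32.1 and 28.6 CPM in the double mutant and 34, 31.0 and 29.9 CPM in WT (0.63 ± 0.11, adjusted p = 0.0405). In these 2 the double mutant lay below all Csspt libraries. With 12 libraries the difference was 1.19 ± 0.19 for the aldo-keto reductase (adjusted p = 0.0626), 0.94 ± 0.15 for nucleoredoxin 1 (adjusted p = 0.0626), 0.90 ± 0.23 for CPR1 (adjusted p = 0.247) and 0.66 ± 0.11 for the permease (adjusted p = 0.0906).

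**Figure D4:**
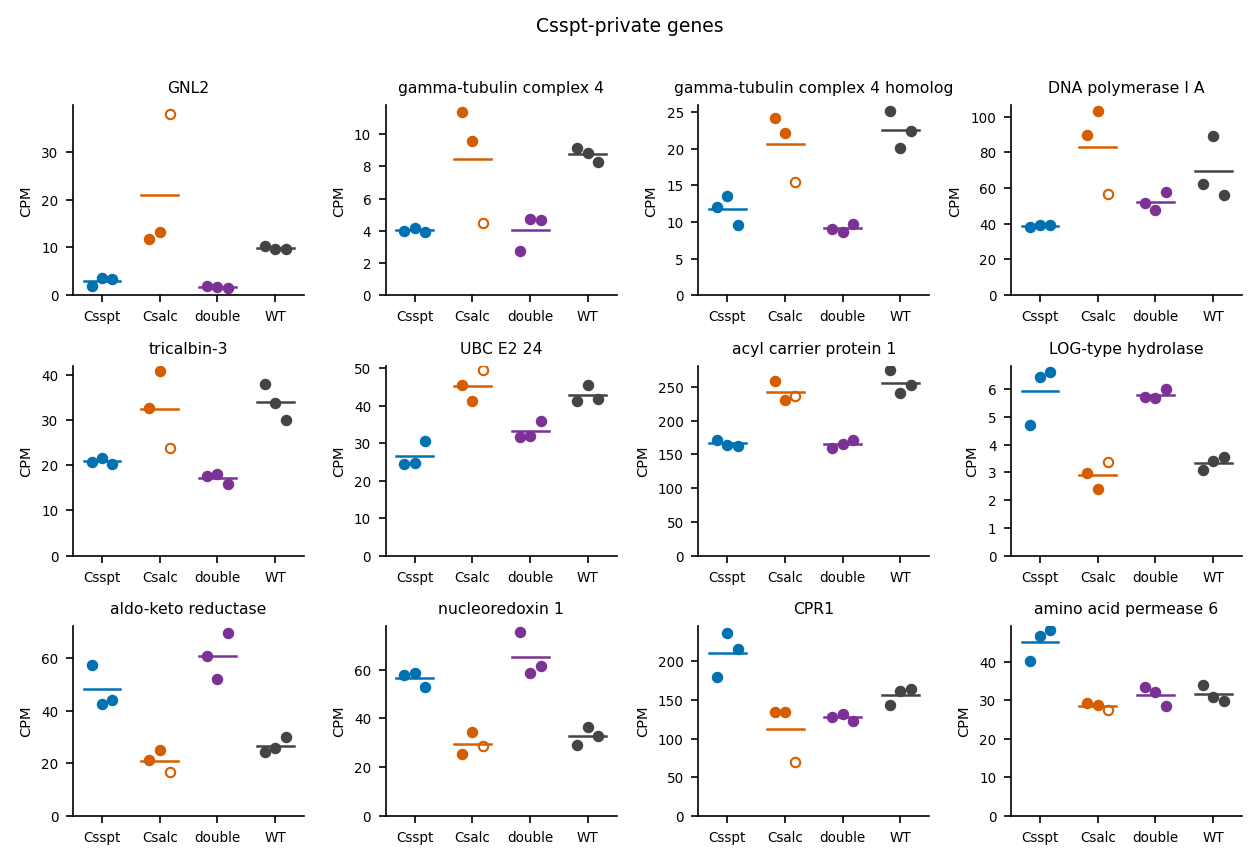
CPM (y axis, linear) by library of 12 Csspt-private genes, in Csspt, Csalc, the double mutant and WT; points are libraries, bars are means of 3 and the open circle is Csalc 3. The first 7 panels are lower and the last 5 higher in Csspt than in Csalc and WT. In GNL2 the open circle is far above the other Csalc points, and in gamma-tubulin complex component 4 it lies just above the Csspt points.

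The double mutant, whose libraries the patterns did not use as a group, was compared by its mean with the means of the single mutants. It was nearer to Csspt in 20 of the 22 Csspt-private genes. Of the 32 Csalc-private genes it was nearer to Csalc in 20 and to Csspt in 12. Of the 13 graded genes it was nearer to Csalc in 11. Over all 95 genes the counts were 55 nearer to Csspt and 40 nearer to Csalc. The same share over all genes tested was not counted, so no conclusion is drawn from these counts.

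Csalc 3 was not used in calling the 95 genes, so it gave the same measure in another library. It lay outside the range of the 3 Csspt libraries on the side of Csalc 1 and 2 in 55 of the 95 genes (57.9%), inside the range in 11 and on the other side in 29. Among all genes in which Csalc 1 and 2 both lay outside the Csspt range on a side, the share was 2481 of 5477 (45.3%). By pattern, it was on that side in 19 of the 32 Csalc-private genes, in 13 of the 22 Csspt-private genes and in 9 of the 13 graded genes. The private genes described above by name had to meet this condition, so their position in Csalc 3 was selected for. UDP-glycosyltransferase 87A1 (Csa6G181560) shows the opposite case: it had 43.1, 36.5 and 36.1 CPM in Csspt, 161 and 153 CPM in Csalc 1 and 2, 36.3 CPM in Csalc 3 and 141, 133 and 129 CPM in WT. This gene had the lowest adjusted p between the mutants without Csalc 3 (7.4e-06, log2 fold change -2.03 ± 0.09), against 0.268 with 12 libraries, and was chosen after its values were seen.

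**Figure D5:**
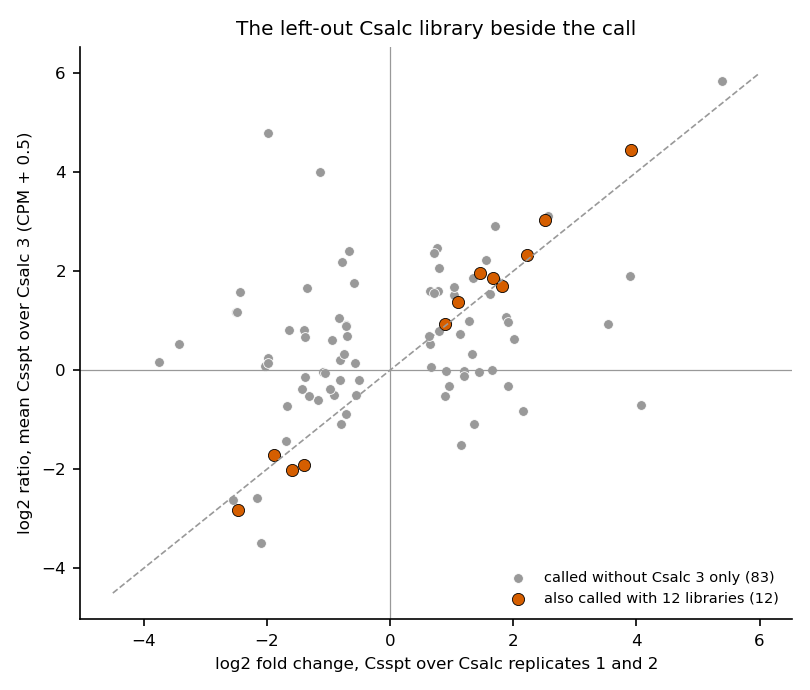
For the 95 genes called without Csalc 3, the log2 fold change of Csspt over Csalc replicates 1 and 2 (x axis) beside the log2 ratio of the Csspt mean over Csalc 3 (y axis, CPM + 0.5); each point is a gene, and orange points are the 12 also called with 12 libraries. The orange points lie near the dashed line of equal values, while grey points are found on both sides of the horizontal zero line. The calls with 12 libraries used Csalc 3, so the position of the orange points is partly fixed by their choice.

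Many genes changed against WT in both mutants without a called difference between them. Without Csalc 3, 304 genes were called in both mutants in the same direction and not called between them, 96 above and 208 below WT. In 12 libraries there were 9, all below WT. The following members were chosen after their values were seen. WIP2 (Csa3G810580), whose Arabidopsis counterpart is required for the transmitting tract, had 12.4, 13.3 and 11.6 CPM in Csspt, 12.4, 13.5 and 20.7 CPM in Csalc, 8.19, 5.86 and 4.91 CPM in the double mutant and 45.7, 46.1 and 46.2 CPM in WT. The single mutants overlapped, and the log2 fold change between them was -0.32 ± 0.22 with 12 libraries (adjusted p = 0.520) and -0.06 ± 0.17 without Csalc 3 (adjusted p = 0.926).

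Among wall enzymes, expansin-A11 (Csa2G346000), which loosens cell walls, had 193, 181 and 187 CPM in Csspt, 196, 106 and 107 CPM in Csalc and 608, 670 and 599 CPM in WT. A rhamnogalacturonate lyase (Csa3G892760), which cuts pectin, had 93.8, 53.6 and 48.7 CPM in Csspt, 54.8, 49.6 and 52.2 CPM in Csalc and 254, 245 and 244 CPM in WT. Pectinesterase 67 (Csa3G166360) had 38.5, 37.3 and 36.2 CPM in Csspt, 53.4, 51.2 and 45.9 CPM in Csalc and 118, 85.0 and 102 CPM in WT. All 3 were low in both mutants, and the pectinesterase alone did not overlap between them (-0.49 ± 0.13, adjusted p = 0.117 without Csalc 3, and -0.43 ± 0.13, adjusted p = 0.320 with 12 libraries). The transcription factor gene NAC56 (Csa3G100800) had 31.7, 39.8 and 46.0 CPM in Csspt, 35.9, 21.1 and 8.67 CPM in Csalc and 161, 168 and 151 CPM in WT. The auxin efflux carrier PIN2 (Csa1G427480) had 4.99, 4.6 and 6.47 CPM in Csspt, 2.30, 1.98 and 6.78 CPM in Csalc and 24.3, 27.1 and 19.9 CPM in WT, with a log2 fold change between the mutants of 1.32 ± 0.35 without Csalc 3 (adjusted p = 0.122) and 0.53 ± 0.48 with 12 libraries (adjusted p = 0.620).

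Over all genes, edgeR called 0.498% between the mutants without Csalc 3, with 2588 of 19060 at an unadjusted p under 0.05. A count of 0 in a list of this size is therefore no result about its members. DESeq2 called 761 genes in all and limma voom 165 without Csalc 3, against 406 and 160 with 12 libraries. Among 70 tested carpel and style regulators edgeR called 0 between the mutants without Csalc 3, with 15 at an unadjusted p under 0.05, 6 called by DESeq2 and 0 by limma voom. HEC3 (Csa6G483450), a partner of SPATULA in Arabidopsis, had 48.0, 24.9 and 25 CPM in Csspt, 15.3, 9.89 and 73.3 CPM in Csalc and 36.0, 48.1 and 51.6 CPM in WT. The log2 fold change of this gene between the mutants was 1.37 ± 0.37 without Csalc 3 (adjusted p = 0.131) and -0.01 ± 0.63 with 12 libraries (adjusted p = 0.995), and the direction turned with Csalc 3. Among 91 auxin response genes 0 were called, with 21 at an unadjusted p under 0.05, 8 by DESeq2 and 0 by limma voom. Among 90 wall-loosening genes 0 were called, with 16, 4 and 1 by the same measures, and the median log2 fold change was 0.04 without Csalc 3, beside -0.34 with 12 libraries. Of 92 pectin enzymes, edgeR called 0 higher and 2 lower in Csspt without Csalc 3, where it called 0.252% of all genes higher and 0.247% lower. DESeq2 called 4 of them higher and 5 lower, and limma voom 0 and 2. With 12 libraries edgeR called 0 members of these 4 lists, with 9 carpel and style regulators, 22 auxin response genes, 21 wall-loosening genes and 19 pectin enzymes at an unadjusted p under 0.05, while DESeq2 called 2, 5, 1 and 1 and limma voom 0, 0, 1 and 1.

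Clock genes were read as a measure of how the libraries differ. The summed level of 7 morning clock genes was 2253, 1346 and 1211 CPM in Csspt, 2245, 2067 and 66.3 CPM in Csalc and 2504 to 2572 CPM in WT. Csspt 2 and 3 were thus below Csspt 1, Csalc 1 and Csalc 2, and Csalc 3 was lower still. Of 14 evening clock genes tested, edgeR called 1 between the mutants without Csalc 3, where 0.498% of all genes were called. DESeq2 called 2 evening clock genes and limma voom 1, where they called 761 and 165 genes in all. The gene called by edgeR was the light receptor gene Adagio 3 (Csa5G021300). It had 77.1, 85.7 and 90.8 CPM in Csspt, 31.2, 22.2 and 84.6 CPM in Csalc and 47.5, 74.3 and 72.9 CPM in WT (1.66 ± 0.25, adjusted p = 0.0239), against 0.88 ± 0.42 with 12 libraries (adjusted p = 0.396). Collection times are not in the labels, and the part of time of day in the differences between the mutants was not tested.

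The calls depended on single libraries. With 12 libraries, leaving out Csspt 1, 2 or 3 left 2, 2 and 3 genes called between the mutants, while leaving out Csalc 1 gave 21 and Csalc 3 gave 95. There were 5 without CssptCsalc 2, 4 without CssptCsalc 3, 5 without WT 1, 6 without WT 2 and 4 without WT 3. The GDSL esterase/lipase Csa6G518310 and U-box protein 51 kept their calls in all 12 of these fits. ABCG32 lost its call without Csspt 1 (adjusted p = 0.0541) or Csspt 2 (adjusted p = 0.0681), and JASON without Csspt 1, 2 or 3 (adjusted p = 0.0655, 0.0681 and 0.0838). Without Csalc 3, 6 of the 34 genes chosen by the naming rule and called between the mutants kept their calls when each further library was left out: the esterase, U-box protein 51, JASON, ABCG32, GNL2 and lysine histidine transporter 1. The others lost theirs in at least 1 fit, most often without Csspt 2, Csspt 3 or Csalc 2 (24 genes each), Csalc 1 (20) or WT 3 (18). None of the 34 changed sign.

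In the authors' deposited table, 129 genes have an FDR under 0.05 between these mutants, and 49 are marked up and 37 down among 16153 with a value. The sign of all 129 fold changes there is that of Csalc over Csspt, the reverse of the direction used here. The marks include 11 of the 12 genes called with 12 libraries.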

How the data were processed

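The data are RNA-seq counts of 12 libraries of cucumber stigma and style, 3 for each of 4 genotypes. The authors' deposited table holds, for 24345 genes including 1097 new gene models, whole-number read counts and FPKM values, which per the file headers the authors normalized by length and depth. The submitters' processing notes name HISAT2, HISAT and DESeq2. Not given in the sources used here were their versions, the genome build, the annotation and the strand setting. Columns labelled DM stand for the double mutant. Each library had 32155631 to 37986853 counts.

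Tests on these counts used edgeR 4.0.16 under R 4.3.3 (filterByExpr with a minimum count of 10, TMM factors, glmQLFit and glmQLFTest), all 4 groups in 1 fit without a block, Benjamini-Hochberg adjustment over all genes tested and a threshold of 0.05. The fit was repeated without Csalc replicate 3. Log2 fold changes are Csspt over Csalc or mutant over WT, ± SE (log2 fold change over the square root of F). CPM values use the 12-library TMM factors and are not divided by gene length, so levels are compared between libraries only; FPKM served only as the minimum of 2 for naming a gene. DESeq2 1.42.0 and limma 3.58.1 voom with library weights were alternatives, and the scripts were tested on simulated data.

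Genes are named where called in both fits in the same direction, without overlap of the 3 Csspt and 3 Csalc libraries and with an informative protein name (up to 10 per direction), likewise up to 10 private genes per direction and 5 opposed genes, up to 4 called members per list, and genes named SPATULA. STIG1-like, AGAMOUS, HEC3, Adagio 3, UDP-glycosyltransferase 87A1, the lipid genes Csa3G303130 and Csa4G640980, Csa1G003460, Csa1G616280 and the common genes were chosen after their values were seen. The comparison and the 38 gene lists were chosen with earlier results of these data known, and list patterns were tidied for false name matches. No replicates were merged, as the chi-square of each pair was 13.6 or more per degree of freedom. None of the gene IDs matched the RefSeq table, so no coordinates or sequences are given.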

Additional observations from a re-analysis of the deposited data

Results flagged for a closer look

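In 2 genes, Csspt and Csalc departed from WT in opposite directions, each past the threshold of edgeR's quasi-likelihood test without Csalc replicate 3, and the difference between the mutants itself passed it. For JASON (Csa4G063990) that difference was -1.88 on the log2 scale (adjusted p = 0.00495), with each Csspt library below and each Csalc library above the 3 WT libraries. For the omega-hydroxypalmitate O-feruloyl transferase (Csa4G640980) it was -0.945 (adjusted p = 0.0076), with -0.50 ± 0.10 in Csspt and 0.45 ± 0.11 in Csalc against WT. In this gene Csalc 3, at 27.4 CPM, lay below the 3 Csspt libraries, and with 12 libraries the difference was -0.58 (adjusted p = 0.445).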

How the results depend on the processing

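With 3 libraries per genotype the counts of calls moved widely, and the reasons were not tested. Counts below are given first with 12 libraries and then without Csalc replicate 3. Between Csspt and Csalc, against 12 and 95 genes by edgeR, DESeq2 called 406 and 761, limma voom with library weights 160 and 165, and fits of the compared libraries alone 0 and 5. A threshold of 0.01 left 4 and 9. In Csspt against WT, beside 11 and 900 genes, DESeq2 called 303 and 2115 and limma voom 2892 and 2995, and 4 were called with 12 libraries and no filter on low counts. In Csalc against WT, beside 148 and 831, DESeq2 called 1477 and 1654, and limma voom 804 with 12 libraries. Csspt-private genes, 0 and 22 by edgeR, numbered 38 and 189 by DESeq2 and 51 and 55 by limma voom. Csalc-private genes, 5 and 32 by edgeR, numbered 75 and 189 by DESeq2, and 41 with 12 libraries by limma voom. An interval of -0.5 to 0.5 for the other mutant left 14 Csspt-private genes without Csalc 3, and 0 and 11 Csalc-private genes. With no such bound there were 9 Csalc-private genes with 12 libraries. RLE scaling moved none of these counts by more than 1.5 times.

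Leaving out each library in turn gave 2 to 95 genes between the mutants with 12 libraries, and 20 to 280 when another was left out besides Csalc 3. These ranges were 0 to 900 and 126 to 1507 in Csspt against WT, 33 to 1271 and 253 to 1022 in Csalc against WT, 0 to 22 and 3 to 131 for Csspt-private genes, and 0 to 32 and 8 to 87 for Csalc-private genes. Where a single Csalc library remained, it was assumed to vary like the other groups.

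Same-numbered Csspt and Csalc libraries deviated from their group means with correlations of 0.105, 0.0536 and 0.143. The Csalc mean held the outlying Csalc 3, so these values cannot show whether the numbers are pairs. They were not read as pairs. With the replicate block, 2 and 27 genes were called between the mutants, 3 and 547 in Csspt against WT and 75 and 535 in Csalc against WT. The block left 9 Csspt-private genes without Csalc 3, and 1 and 12 Csalc-private genes.

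The alternatives were run for 52 genes that the text names, and 48 of them kept the sign of the difference between the mutants throughout. The other 4 were not called in either edgeR fit. HEC3 (Csa6G483450) was at -0.01 with 12 libraries, 1.1225 by limma voom and 0.2246 with the replicate block, with a leave-one-out range of -0.4378 to 1.3708. WIP2 (Csa3G810580) turned to 0.0035 with the replicate block and to 0.0019 without Csalc 2, both without Csalc 3, where its leave-one-out range was -0.1222 to 0.0019. Expansin-A11 (Csa2G346000) turned to -0.0701 without Csalc 2 and 3, in a range up to 0.8159. The rhamnogalacturonate lyase (Csa3G892760) turned to -0.0398 without Csspt 1 and to -0.0381 without Csspt 1 and Csalc 3, in ranges up to 0.498 and 0.4963.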

Other observations

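Of 92 cytochrome P450 genes tested without Csalc replicate 3, 2 were lower in Csspt than in Csalc by edgeR, and of 90 MYB factors 1 was higher and 1 lower, where 0.252% of all genes were called higher and 0.247% lower. DESeq2 called 7 of the P450 genes, all lower, and limma voom 4, all lower, where they called 761 and 165 genes in all. Pleiotropic drug resistance protein 1 (Csa3G550680), an ABC-type efflux pump, had 224, 123 and 128 CPM in Csspt, 57.1, 39.3 and 20.7 CPM in Csalc, 45.5, 49.0 and 50.1 CPM in the double mutant and 246, 193 and 238 CPM in WT, with a log2 fold change of 1.71 between the mutants without Csalc 3 (adjusted p = 0.0239) and 2.02 with 12 libraries (adjusted p = 0.0906). It was chosen after its values were seen, as were the next genes.

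A pair of genes with neighbouring identifiers, both named autophagy-related protein 13b, were graded without Csalc 3. Whether the pair is a single locus is not known, so the genes were not read as independent. Csa6G484560 had 274, 294 and 279 CPM in Csspt, 175, 155 and 50.7 CPM in Csalc, 65.5, 81.7 and 75.9 CPM in the double mutant and 470, 518 and 435 CPM in WT. Csa6G484550 had 84.7, 85.5 and 81.8 CPM in Csspt, 49.2, 47.1 and 19.9 CPM in Csalc, 17.9, 24.7 and 20.7 CPM in the double mutant and 136, 155 and 127 CPM in WT. In both, each Csspt library lay below each WT library and above each Csalc library, and the double mutant lay below Csalc 1 and 2. Without Csalc 3 the log2 fold change between the mutants was 0.77 for Csa6G484560 (edgeR adjusted p = 0.0239) and 0.80 for Csa6G484550 (adjusted p = 0.0282). With 12 libraries it was 1.15 (adjusted p = 0.320) and 1.12 (adjusted p = 0.247), so neither passed 0.05. The transcription factor gene MYB58 (Csa6G136580) had 0.370, 0.295 and 0.440 CPM in Csspt and 3.12, 4.83 and 0.0983 CPM in Csalc, so Csalc 3 lay with Csspt.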
